A study of Homo sapiens with 9 samples.

Results

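The 39 protein-coding HOX genes of the human HOXA, HOXB, HOXC and HOXD clusters were followed across 9 RNA-seq libraries. They were chosen by symbol alone, as every name made of HOXA, HOXB, HOXC or HOXD and digits, and are 39 of the 26364 genes in the count tables (11 HOXA, 10 HOXB, 9 HOXC and 9 HOXD genes). The cell line was MDA-MB-231, from a human breast adenocarcinoma of the triple-negative kind. The cells had been infected with pLVX lentivirus and stably carried the T334A form of MEL-18, which lacks the threonine that is phosphorylated, the wild-type form (MEL-18 WT), or an empty vector. Each of the 3 groups had 3 biological replicates, cultured for 48 h before poly(A) RNA was sequenced. The sources used here do not state whether each line was a clone or a pool, or whether replicates came from separate infections, so p-values measure the spread between these libraries, and an effect of MEL-18 and a difference between 3 infected lines cannot be told apart.

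HOX genes encode homeodomain transcription factors that give cells their position along the body axis. Within a cluster the genes lie in the order of the regions they mark: low paralog numbers stand at the end used in the hindbrain and neck, high numbers at the end used in the lower trunk, limbs and genital tract, and genes with the same number in different clusters are close relatives. Polycomb group proteins are known for keeping HOX clusters silent outside their regions. The PCGF2 gene encodes MEL-18, which belongs to PRC1, the Polycomb complex that ubiquitinates histone H2A, and which resembles BMI1.

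PCGF2 followed the labels. It had 1420, 1450 and 1390 CPM (counts scaled to library size, with TMM factors) in MEL-18 T334A cells, 1290, 1290 and 1280 CPM in MEL-18 WT cells, and 22.2, 23.8 and 22.3 CPM in empty vector cells. The log2 fold change over the vector was 5.96 ± 0.04 (SE) for MEL-18 T334A and 5.82 ± 0.04 for MEL-18 WT, and MEL-18 T334A exceeded MEL-18 WT by 0.14 ± 0.03 (adjusted p = 0.000148, edgeR's quasi-likelihood test). The counts do not separate introduced from endogenous PCGF2.

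The libraries held 31643722 to 37005302 counts, of which at least 99.95% fell in the 14738 genes that passed the filter on low counts. The number of genes with a count was 20323 in MEL-18 T334A replicate 1 and 18956 to 19636 in the other 8 libraries. All 8 genes listed as high in MDA-MB-231 (VIM, CD44, EGFR, AXL, CAV1, FOSL1, SPARC, KRT18) were abundant, and their sum was 4860 to 5030 CPM in MEL-18 T334A, 4500 to 4630 CPM in MEL-18 WT and 4730 to 4880 CPM in vector libraries. Of 7 genes listed as low, ESR1, PGR and CDH1 had 19, 9 and 32 counts in all libraries together, GATA3, EPCAM and FOXA1 averaged 7.24, 9.92 and 10.8 CPM, and ERBB2 averaged 67.4 CPM, above SPARC of the other list at 27.8 CPM. The 7 summed to 99.8 to 101 CPM in MEL-18 T334A, 96.6 to 98.4 CPM in MEL-18 WT and 86.6 to 91 CPM in vector libraries. Of 5 fibroblast markers, DCN and LUM had 1 and 7 counts in all, and the list's sum was 19.2 to 25.7 CPM in MEL-18 T334A, 18.9 to 21.4 CPM in MEL-18 WT and 15.4 to 16.2 CPM in vector libraries, carried by COL1A1 and PDGFRB. The 5 leukocyte markers summed to 49.2 to 53.8, 52.9 to 57.8 and 53.9 to 55.5 CPM in the same order of groups, nearly all from CD68, with CD3E and LYZ at 6 counts each in all. The 3 endothelial markers (PECAM1, VWF, CDH5) summed to 0.592 to 0.962 CPM in MEL-18 T334A, 1.14 to 1.48 CPM in MEL-18 WT and 1.98 to 2.41 CPM in vector libraries. The part of these differences in the HOX values was not tested.

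HOX transcripts were a small fraction of the RNA. All 39 genes together had 17976 counts in the 9 libraries, or 49 to 65.1 CPM per library with TMM scaling. Their summed level was 60.9 ± 1.2 CPM in MEL-18 T334A cells, 64.4 ± 0.716 CPM in MEL-18 WT cells and 49.9 ± 1.55 CPM in vector cells (SD, n = 3 each). Of the 39 genes, 15 passed the filter and could be tested, and all 15 lay above it in every library, so none entered through only 1 group. Another 22 had counts but too few to test, at most 63 counts over the 9 libraries, and HOXA9 and HOXC11 had none, which allows up to 3 counts. In bulk RNA, fewer cells with a transcript and less transcript per cell cannot be told apart.

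**Figure D1:**
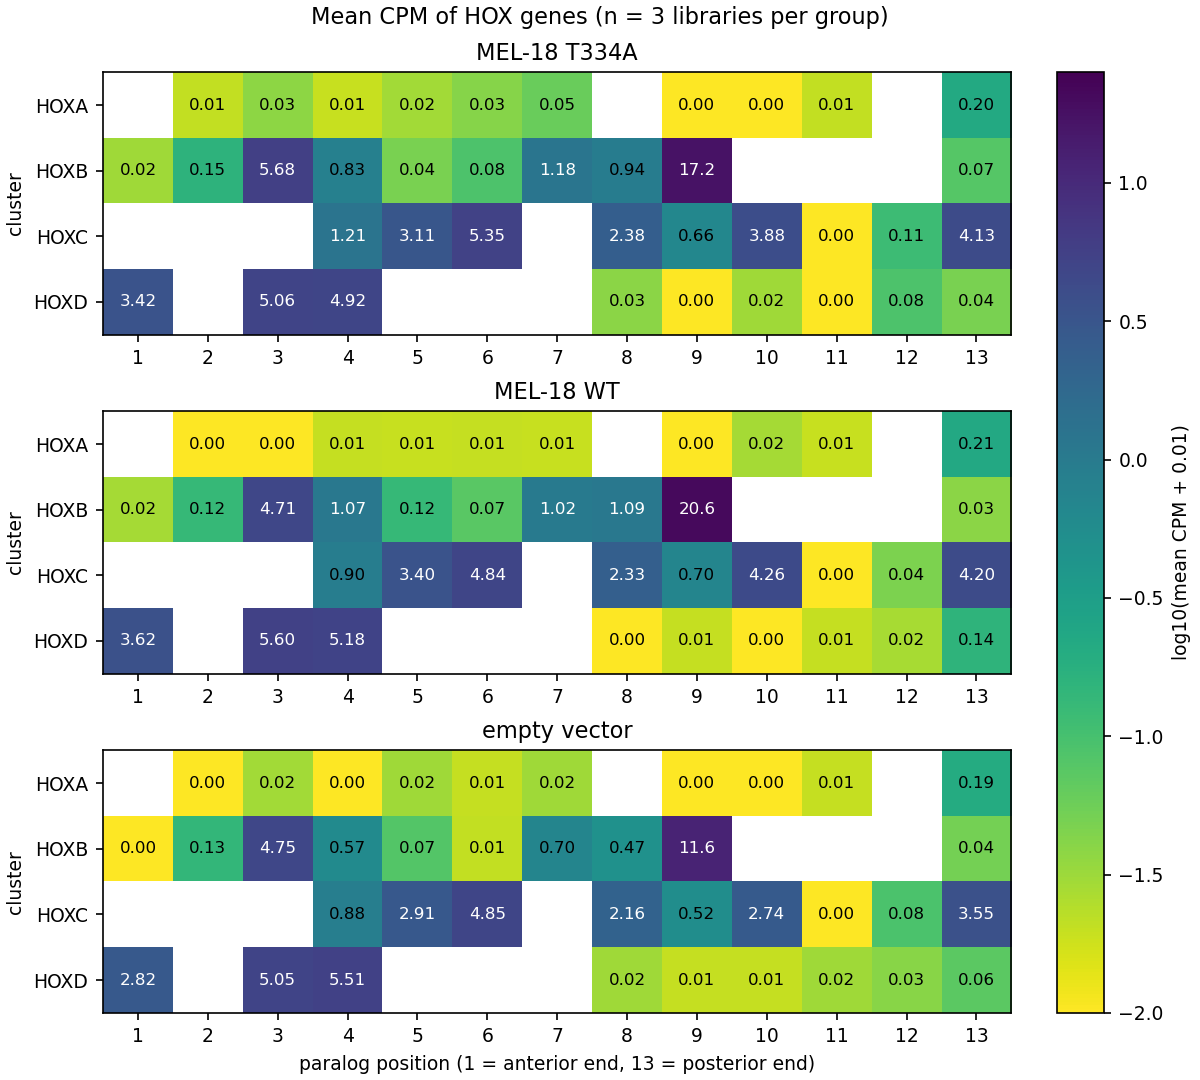
Mean CPM of HOX genes, printed in its cell and coloured on a log10(CPM + 0.01) scale, by cluster (rows) and paralog position (columns 1 to 13), for MEL-18 T334A, MEL-18 WT and empty vector cells from top to bottom (n = 3 libraries each). Blank cells are positions with no gene in that cluster or no value shown. The HOXA row stays near 0 apart from HOXA13, HOXB9 is the darkest cell in all 3 maps, and the HOXD row is filled at positions 1, 3 and 4.

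The clusters differed in where along their length they were transcribed, as the map of mean levels by cluster and position shows. HOXA was close to silent from end to end: its 11 genes had 95 counts in the 9 libraries, 6 to 15 per library, and 63 of these belonged to HOXA13, a gene of digit and genital tract patterning. HOXA7 had 8 counts, HOXA3, HOXA5 and HOXA6 had 5 each, HOXA11 had 3, HOXA4 and HOXA10 had 2, and HOXA2 had 1. The summed HOXA level was 0.362 ± 0.0939 CPM in MEL-18 T334A, 0.282 ± 0.0426 CPM in MEL-18 WT cells and 0.284 ± 0.141 CPM in vector cells, values that differ by less than their spread. A difference in HOXA between the lines was not detectable at this depth.

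HOXB was transcribed at separate positions. HOXB3, HOXB4, HOXB7, HOXB8 and HOXB9 could be tested, while HOXB5 and HOXB6, which lie between HOXB4 and HOXB7, had 24 and 16 counts in all. HOXB2 had 41 counts, HOXB13 had 14 and HOXB1 had 4. HOXC was transcribed over most of its length, with 7 of 9 genes tested (HOXC4, HOXC5, HOXC6, HOXC8, HOXC9, HOXC10 and HOXC13) and a gap at HOXC11, with no count, and HOXC12, with 23 counts. HOXD was transcribed at positions 1, 3 and 4 of its 9 genes: HOXD1, HOXD3 and HOXD4 were tested, and HOXD8, HOXD9, HOXD10, HOXD11, HOXD12 and HOXD13 had 5, 2, 3, 3, 13 and 25 counts, or 51 counts in all 9 libraries.

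The highest HOX level per length of merged exons was that of HOXB9, a posterior gene that in mice acts with its position 9 relatives in mammary gland development. It averaged 6.39 CPM per kb of merged exons over the 9 libraries, with a range of 4.44 to 8.16. HOXD4 followed with 3.55 (3.29 to 3.96) and HOXD3 with 2.1 (1.91 to 2.36), ranges that overlap neither each other nor that of HOXB9. The next genes, HOXC10 (1.88), HOXD1 (1.66), HOXC13 (1.63), HOXC6 (1.54), HOXC5 (1.49) and HOXC8 (1.21 CPM per kb), had ranges that overlap those of their neighbours in this order. HOXB3 reached 0.806, HOXB7 0.706, HOXB8 0.457, HOXC4 0.439, HOXC9 0.403 and HOXB4 0.219 CPM per kb, each with a range that overlaps the next, and the highest gene that was not tested, HOXB2, reached 0.0858. Merged exons join all transcripts of a gene and can exceed a single transcript: 6269 against 2196 bases for HOXB3, and 3251 against 1733 for HOXC6. The order below HOXB9 therefore depends on the length used. A mean of at least 1 CPM, without regard to length, was reached by 10 genes: HOXB3, HOXB9, HOXC5, HOXC6, HOXC8, HOXC10, HOXC13, HOXD1, HOXD3 and HOXD4.

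The share of HOX counts that came from each cluster differed between the groups. HOXB supplied 42.9 ± 1.91% of HOX counts in MEL-18 T334A, 44.8 ± 0.419% in MEL-18 WT and 36.9 ± 0.846% in vector libraries (SD, n = 3 each). HOXC supplied 34.2 ± 1.36%, 32.1 ± 0.252% and 35.4 ± 1.87% in MEL-18 T334A, MEL-18 WT and vector libraries, and HOXD 22.3 ± 0.571%, 22.7 ± 0.619% and 27.1 ± 1.91%. The HOXB share was above every vector library in all 6 MEL-18 libraries (41.3 to 45.3% in the MEL-18 libraries against 36.2 to 37.8% in the vector libraries), and the HOXD share was below every vector library. As summed levels, HOXB had 26.1 ± 1.6 CPM in MEL-18 T334A, 28.9 ± 0.579 CPM in MEL-18 WT cells and 18.4 ± 0.431 CPM in vector cells; HOXC had 20.8 ± 0.673, 20.7 ± 0.336 and 17.7 ± 1.48 CPM in that order, and HOXD 13.6 ± 0.0828, 14.6 ± 0.28 and 13.5 ± 0.673 CPM. HOXB9 alone had 17.2 CPM in MEL-18 T334A, 20.6 CPM in MEL-18 WT cells and 11.6 CPM in vector cells. The HOXB share and sum are therefore not separate from the values of that gene. Because the shares add to a whole, a higher HOXB share lowers the others. The lower HOXD share came without a lower summed HOXD level. These sums are descriptions and were not tested.

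By position, the summed levels of the groups stood farthest apart at the posterior end. The 16 genes of positions 9 to 13, of which 4 could be tested, summed to 26.4 ± 0.553 CPM in MEL-18 T334A, 30.3 ± 0.57 CPM in MEL-18 WT cells and 18.9 ± 0.308 CPM in vector cells. The 15 central genes, positions 4 to 8, summed to 20.2 ± 0.809, 20.1 ± 1.05 and 18.2 ± 0.936 CPM in the same order of groups, and the 8 anterior genes, positions 1 to 3, to 14.4 ± 0.198, 14.1 ± 0.572 and 12.8 ± 0.732 CPM. HOXB9 made up most of the posterior sum, so these regional values are not separate from the values of that gene.

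In MEL-18 WT cells, set against empty vector cells, 5 of the 15 tested HOX genes rose and none fell: HOXB4, HOXB8, HOXB9, HOXC10 and HOXD1. The largest log2 fold change among them was that of HOXB8, 1.21 ± 0.24, and the smallest that of HOXD1, 0.36 ± 0.12. Among all 14738 genes tested, 28.8% passed an adjusted p of 0.05 in this comparison, 14.4% as higher and 14.4% as lower (edgeR's quasi-likelihood test, Benjamini-Hochberg adjustment over all genes). Without the adjustment, 7 of the 15 had a p under 0.05. The 15 log2 fold changes ran from −0.09 to 1.21 with a median of 0.24, beside a median of −0.002 over all genes tested. In 6 of the 15 genes every MEL-18 WT library lay above every vector library and in none below, beside 21.4% and 21.3% of all genes. Under library totals without TMM the higher share among all called genes was 60.1%, against 50.1% under TMM, and the same 5 HOX genes were called.

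In MEL-18 T334A cells, set against the same empty vector libraries, 5 of 15 HOX genes rose and none fell: HOXB3, HOXB7, HOXB8, HOXB9 and HOXC10. HOXB8 again had the largest log2 fold change, 0.98 ± 0.25. Among all genes tested, 45.9% were called, 23.4% as higher and 22.5% as lower, and 8 of the 15 HOX genes had an unadjusted p under 0.05. The 15 log2 fold changes ran from −0.16 to 0.98 with a median of 0.28, beside −0.002 over all genes. The libraries did not overlap in 9 of the 15 genes, all higher, beside 26.2% higher and 25.2% lower among all genes. Under scaling by library totals alone, 64% of all called genes were higher, against 51.1% under TMM, and the HOX genes called came to 7, with HOXC13 and HOXD1 added to the 5. Both comparisons share the 3 vector libraries, so they are not independent of each other.

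Few HOX genes were called between MEL-18 T334A and MEL-18 WT cells, which does not show that the others were alike. Set against MEL-18 WT, HOXB3 was higher and HOXB9 was lower in MEL-18 T334A cells, and the other 13 tested genes did not pass the test. Among all genes 40.9% were called, 21% as higher and 20% as lower, and 3 HOX genes had an unadjusted p under 0.05. The HOX log2 fold changes ran from −0.39 (HOXB4, 95% interval −0.88 to 0.1) to 0.42 (HOXC4, 0.04 to 0.81). Their median was −0.08, beside −0.003 over all genes. The libraries did not overlap in 4 genes as higher (HOXB3, HOXB7, HOXC4, HOXC6) and 3 as lower (HOXB9, HOXD3, HOXD4), beside 24.7% and 24% of all genes. HOXB9 alone was called with DESeq2, and likewise without MEL-18 WT replicate 2 or without MEL-18 T334A replicate 3, so the count was then 1.

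**Figure D2:**
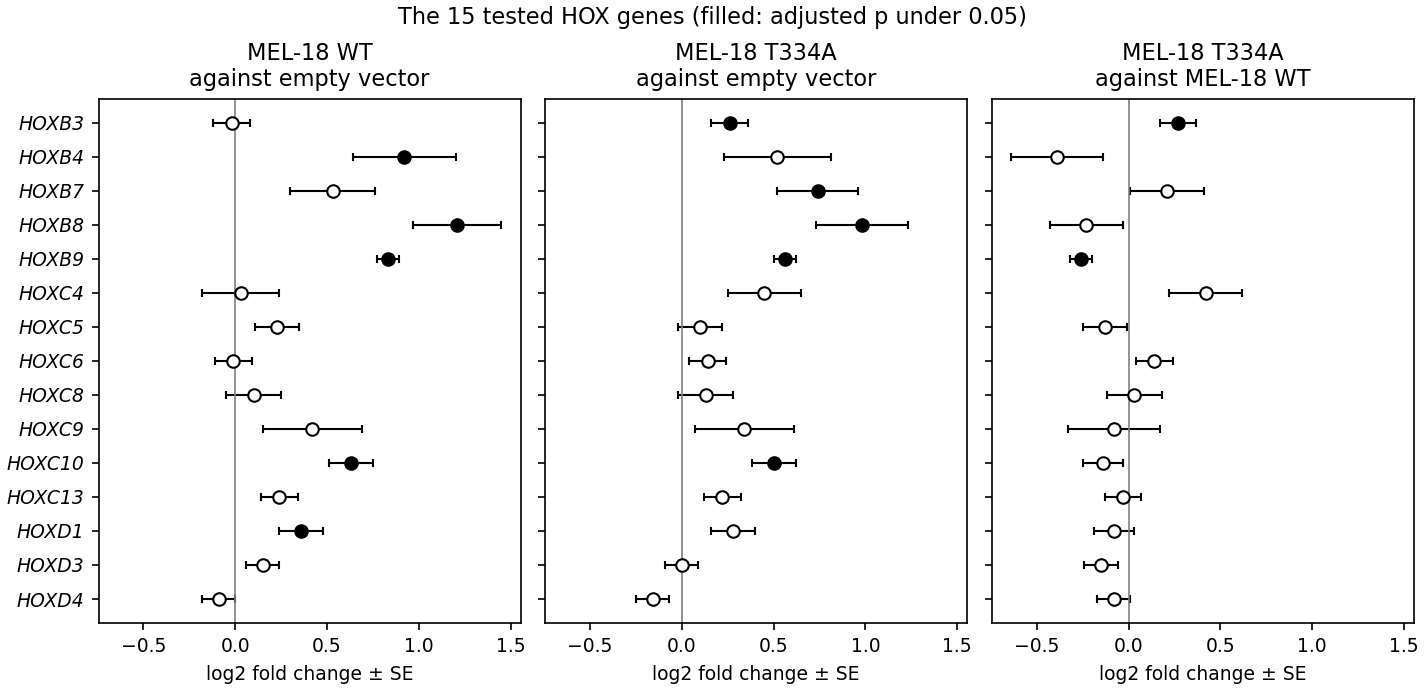
Log2 fold change ± SE of the 15 tested HOX genes (rows, in cluster order) for MEL-18 WT against empty vector, MEL-18 T334A against empty vector and MEL-18 T334A against MEL-18 WT (edgeR, 3 libraries per group). Filled points passed an adjusted p of 0.05. HOXB8, HOXB9 and HOXC10 are filled in both vector comparisons, and HOXB3 and HOXB9 in the comparison of the 2 MEL-18 forms, on opposite sides of 0.

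HOXB9 had 15.92, 16.8 and 18.77 CPM in MEL-18 T334A libraries, 21.06, 20.55 and 20.22 CPM in MEL-18 WT libraries and 11.5, 11.45 and 11.95 CPM in vector libraries. The 3 groups did not overlap, with MEL-18 WT highest, MEL-18 T334A between and the vector lowest. The log2 fold change was 0.56 ± 0.06 for MEL-18 T334A against vector (adjusted p = 3.6e-08) and 0.83 ± 0.06 for MEL-18 WT against vector (adjusted p = 3.97e-11, edgeR's quasi-likelihood test). MEL-18 T334A cells were lower than MEL-18 WT cells by a log2 fold change of −0.26 ± 0.06 (adjusted p = 0.000456).

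HOXB8, whose mouse counterpart acts in the spinal cord and in the myeloid lineage, rested on far fewer reads. It had 35, 28 and 33 counts in MEL-18 T334A libraries, 33, 47 and 36 in MEL-18 WT libraries and 12, 17 and 17 in vector libraries. Every MEL-18 library lay above every vector library, while the MEL-18 T334A and MEL-18 WT libraries overlapped. The ratio of summed counts to the vector, scaled to library size, was 1.98 for MEL-18 T334A (95% exact binomial interval 1.38 to 2.88) and 2.33 for MEL-18 WT (1.64 to 3.35). The intervals cover counting error only. In the model over libraries the adjusted p was 0.00215 for MEL-18 T334A and 0.000302 for MEL-18 WT, and MEL-18 T334A against MEL-18 WT gave −0.23 ± 0.2 (adjusted p = 0.382, 95% interval −0.63 to 0.16).

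HOXC10, a gene of lumbar and hindlimb motor neurons in the mouse, had 4.41, 3.82 and 3.41 CPM in MEL-18 T334A libraries, 4.19, 3.99 and 4.6 CPM in MEL-18 WT libraries and 2.59, 3 and 2.61 CPM in vector libraries. All MEL-18 libraries exceeded all vector libraries. The log2 fold change was 0.5 ± 0.12 in MEL-18 T334A (adjusted p = 0.00151) and 0.63 ± 0.12 in MEL-18 WT (adjusted p = 0.000161). Between the MEL-18 forms it was −0.14 ± 0.11, with a 95% interval of −0.35 to 0.08.

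HOXB7, described as an activator of growth factor genes in breast cancer cells, had 1.18, 1.07 and 1.3 CPM in MEL-18 T334A libraries, 1.06, 0.98 and 1.02 CPM in MEL-18 WT libraries and 0.58, 0.98 and 0.54 CPM in vector libraries. Vector replicate 2 stood at the level of the lowest MEL-18 WT library. HOXB7 rose in MEL-18 T334A cells (0.74 ± 0.22, adjusted p = 0.00719) and did not pass in MEL-18 WT cells (0.53 ± 0.23, adjusted p = 0.0827). Without vector replicate 2 the MEL-18 WT value was 0.86 ± 0.25 (adjusted p = 0.0142). The 2 MEL-18 forms differed by 0.21 ± 0.2, with an interval of −0.18 to 0.6, so a difference between them was not shown.

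HOXB4, known for expanding blood stem cells, had 29, 29 and 27 counts in MEL-18 T334A libraries, 38, 57 and 20 in MEL-18 WT libraries and 21, 15 and 20 in vector libraries. MEL-18 WT replicate 3 lay among the vector libraries and replicate 2 far above them. HOXB4 rose in MEL-18 WT cells (0.92 ± 0.28, adjusted p = 0.0125), but the call was lost without MEL-18 WT replicate 2 (0.55 ± 0.29, adjusted p = 0.181) or vector replicate 2 (0.76 ± 0.31, adjusted p = 0.0772). In MEL-18 T334A cells the value was 0.52 ± 0.29 (adjusted p = 0.152), and MEL-18 T334A against MEL-18 WT gave −0.39 ± 0.25 (adjusted p = 0.218). That value rested on single MEL-18 WT libraries: it was −0.02 (adjusted p = 0.959) without replicate 2 and −0.66 ± 0.23 (adjusted p = 0.026) without replicate 3.

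HOXB3, a hindbrain gene at the anterior side of the cluster, was the HOX gene that was higher in MEL-18 T334A cells than in both other groups. It had 5.52, 5.52 and 6 CPM in MEL-18 T334A libraries, 4.95, 4.07 and 5.12 CPM in MEL-18 WT libraries and 4.64, 5.06 and 4.56 CPM in vector libraries. All MEL-18 T334A libraries were above all others, and the MEL-18 WT and vector libraries overlapped. The log2 fold change was 0.26 ± 0.1 against the vector (adjusted p = 0.0335) and 0.27 ± 0.1 against MEL-18 WT (adjusted p = 0.0248), while MEL-18 WT against vector gave −0.02 ± 0.1. Both calls were lost with DESeq2 (adjusted p = 0.0949 and 0.0788) and without MEL-18 T334A replicate 3 (adjusted p = 0.0987 and 0.0791). The first was also lost without vector replicate 1 (adjusted p = 0.0844) or 3 (adjusted p = 0.092), and the second without MEL-18 WT replicate 2 (0.18 ± 0.1, adjusted p = 0.186).

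HOXD1, which in the mouse shapes pain-sensing neurons, had 3.41, 3.54 and 3.3 CPM in MEL-18 T334A libraries, 3.52, 3.37 and 3.97 CPM in MEL-18 WT libraries and 3.05, 2.88 and 2.52 CPM in vector libraries. Every MEL-18 library lay above every vector library. HOXD1 rose in MEL-18 WT cells (0.36 ± 0.12, adjusted p = 0.0217) and fell just short of the threshold in MEL-18 T334A cells (0.28 ± 0.12, adjusted p = 0.0586), with −0.08 ± 0.11 between the forms. The MEL-18 WT call was lost with DESeq2 (adjusted p = 0.0825) and without vector replicate 3 (adjusted p = 0.107) or MEL-18 WT replicate 3 (adjusted p = 0.108). The MEL-18 T334A value passed in 3 settings: without vector replicate 1 (adjusted p = 0.0461), under library totals alone (adjusted p = 0.0332) and when genes had to reach 1 CPM in 3 or more libraries (adjusted p = 0.0492).

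**Figure D3:**
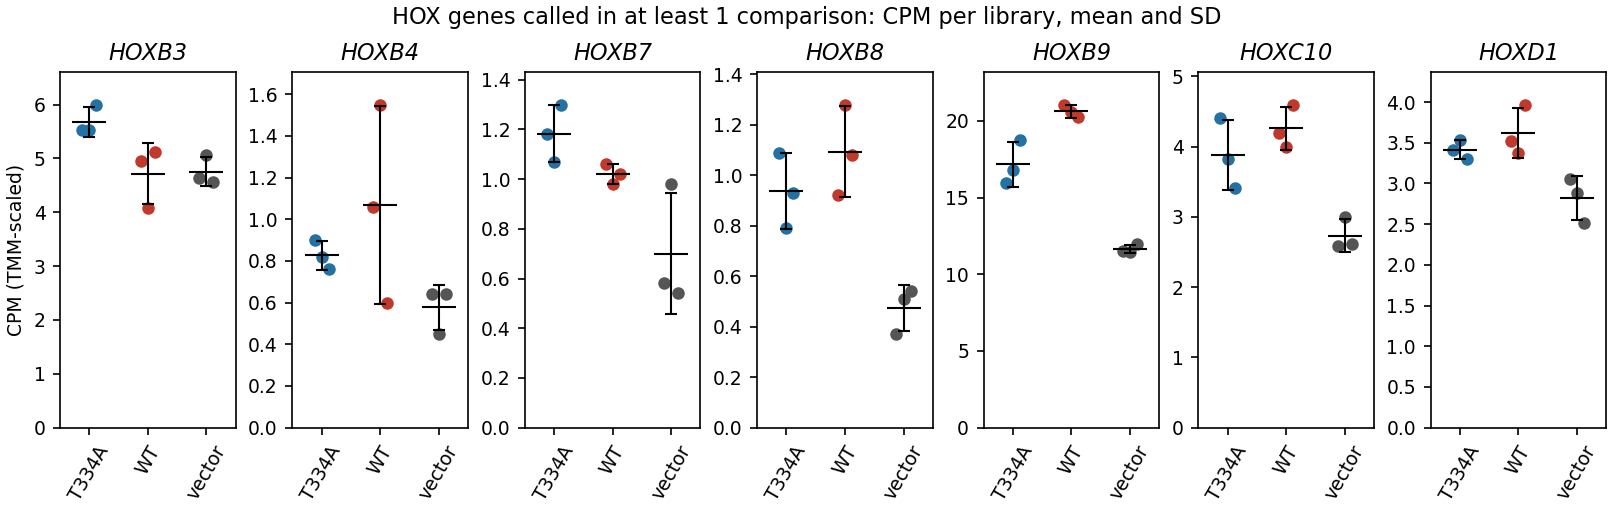
CPM of the 7 HOX genes called in at least 1 comparison, 1 panel per gene with its own axis from 0, in MEL-18 T334A, MEL-18 WT and empty vector libraries from left to right. Points are libraries, and the lines show the mean and SD (n = 3). HOXB9 separates all 3 groups, HOXB8 and HOXC10 separate both MEL-18 groups from the vector, and MEL-18 WT spreads widest for HOXB4, from 0.6 to 1.55 CPM.

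The other 8 tested genes passed in no comparison. HOXD4, a hindbrain and neck vertebra gene, had the highest CPM per kb of its cluster, with 4.96, 4.81 and 4.99 CPM in MEL-18 T334A libraries, 5.03, 5.46 and 5.06 CPM in MEL-18 WT libraries and 5.79, 4.94 and 5.8 CPM in vector libraries. Its log2 fold change was −0.16 ± 0.09 in MEL-18 T334A (95% interval −0.34 to 0.02) and −0.09 ± 0.09 in MEL-18 WT (−0.27 to 0.09). HOXD3, linked to blood vessel integrins, had 4.96, 5.12 and 5.1 CPM in MEL-18 T334A, 5.59, 5.89 and 5.33 CPM in MEL-18 WT and 5.25, 5.14 and 4.75 CPM in vector libraries. Its log2 fold change was 0 ± 0.09 in MEL-18 T334A (−0.17 to 0.18) and 0.15 ± 0.09 in MEL-18 WT (−0.02 to 0.33).

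In HOXC, HOXC6, a gene of the thorax and the highest of its cluster in CPM before allowing for length, had 5.18, 5.35 and 5.53 CPM in MEL-18 T334A, 5.03, 4.97 and 4.51 CPM in MEL-18 WT and 4.7, 5.62 and 4.24 CPM in vector libraries. The vector libraries overlapped both MEL-18 groups, while all MEL-18 T334A libraries lay above all MEL-18 WT libraries. The log2 fold change against the vector was 0.14 ± 0.1 in MEL-18 T334A (−0.06 to 0.34) and −0.01 ± 0.1 in MEL-18 WT (−0.21 to 0.2). Between the MEL-18 forms it was 0.14 ± 0.1 (−0.05 to 0.34). HOXC13, a regulator of hair and nail keratins, lay higher in all 6 MEL-18 libraries (3.89 to 4.31 CPM) than in the vector libraries (3.45 to 3.63 CPM), with 0.22 ± 0.1 in MEL-18 T334A (adjusted p = 0.0858) and 0.24 ± 0.1 in MEL-18 WT (adjusted p = 0.073). HOXC4 gave 0.45 ± 0.2 in MEL-18 T334A (adjusted p = 0.0699) and 0.03 ± 0.21 in MEL-18 WT. HOXC4 passed in MEL-18 T334A without vector replicate 3 (adjusted p = 0.0402) or MEL-18 T334A replicate 2 (adjusted p = 0.0412). HOXC9, which sets the thoracic motor column in the mouse, gave 0.34 ± 0.27 in MEL-18 T334A and 0.42 ± 0.27 in MEL-18 WT at mean levels of 0.523 to 0.703 CPM, with 95% intervals of −0.2 to 0.87 in MEL-18 T334A and −0.1 to 0.94 in MEL-18 WT. HOXC5 gave 0.1 ± 0.12 and 0.23 ± 0.12, and HOXC8 0.13 ± 0.15 and 0.1 ± 0.15, in MEL-18 T334A and MEL-18 WT.

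HOX genes overlap their neighbours and resemble their paralogs, which bears on how reads can be assigned. Overlaps were read from the basic set of GENCODE 29 (GRCh38), and transcripts outside that set were not looked at. Exons of other genes on the same strand covered 88.5% of HOXD3 and 80.5% of HOXD4 exon bases, both from the transcript AC009336.2. They also covered 43.4% of HOXC5, 21.3% of HOXC4, 16.1% of HOXB4 and 14.9% of HOXC6. HOXC4, HOXC5 and HOXC6 share 484 bases with each other. On the opposite strand, AC009336.3 covered 50.1% of HOXD1. HOXC10 was covered to 8.57% on the same strand and 2.27% on the opposite strand, and HOXB3 to 1.93% and 4.75%. HOXB7, HOXB8, HOXB9 and HOXC8 overlapped no exon of another gene in that basic set. The library kit marks strand, but the sources used here do not state the annotation, the strand setting or the handling of shared reads behind the counts, so the HOXC4, HOXC5, HOXC6, HOXD1, HOXD3, HOXD4 and HOXB4 values are less certain than those of HOXB7, HOXB8 and HOXB9. HOX genes of different clusters also share identical stretches in coding sequence, and the longest one of HOXB9 with another cluster is shown because HOXB9 had the highest level per length and a read inside the stretch could come from either gene. It is given in transcript sense from GENCODE 29 transcripts, in capitals throughout because every base is identical in both genes.
HOXB9 (chromosome 17) and HOXD9 (chromosome 2): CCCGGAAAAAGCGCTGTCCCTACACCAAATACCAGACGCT
The run is 40 bases long, in a HOXB9 transcript of 2581 bases. HOXD9 had 2 counts in all 9 libraries, while the lowest HOXB9 count in a library was 375. This pair does not stand for all tested genes: the longest run shared with another cluster was 62 bases for HOXB3 and 62 bases for HOXD3. The effect of shared runs on the counts was not tested.

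Start regions of 4 HOXD genes are shown because they cover the range within 1 cluster: HOXD1, which rose in MEL-18 WT cells, HOXD3 and HOXD4, expressed and not called, and HOXD8, at 5 counts. Each is the RefSeq window from 250 bases before to 50 bases after the annotated start on the plus strand of GRCh38.p14, with every CG in capitals.
HOXD1 (chr2:176188418-176188717): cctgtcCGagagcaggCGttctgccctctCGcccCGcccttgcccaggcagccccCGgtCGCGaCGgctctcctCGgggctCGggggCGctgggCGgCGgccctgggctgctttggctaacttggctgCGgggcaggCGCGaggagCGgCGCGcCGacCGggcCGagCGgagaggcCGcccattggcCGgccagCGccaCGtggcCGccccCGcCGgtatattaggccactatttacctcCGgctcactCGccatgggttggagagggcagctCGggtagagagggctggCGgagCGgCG
HOXD3 (chr2:176157057-176157356): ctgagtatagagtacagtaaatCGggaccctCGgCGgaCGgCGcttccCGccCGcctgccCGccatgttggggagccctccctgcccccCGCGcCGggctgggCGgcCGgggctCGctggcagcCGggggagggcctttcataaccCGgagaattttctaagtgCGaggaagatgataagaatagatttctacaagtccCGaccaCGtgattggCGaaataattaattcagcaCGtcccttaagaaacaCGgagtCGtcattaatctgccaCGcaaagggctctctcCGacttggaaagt
HOXD4 (chr2:176151300-176151599): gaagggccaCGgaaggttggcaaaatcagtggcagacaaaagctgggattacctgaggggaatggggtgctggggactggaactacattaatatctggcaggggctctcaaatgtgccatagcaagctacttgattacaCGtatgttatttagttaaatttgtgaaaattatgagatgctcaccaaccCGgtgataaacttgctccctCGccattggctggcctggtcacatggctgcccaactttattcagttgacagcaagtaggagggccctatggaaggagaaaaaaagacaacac
HOXD8 (chr2:176129455-176129754): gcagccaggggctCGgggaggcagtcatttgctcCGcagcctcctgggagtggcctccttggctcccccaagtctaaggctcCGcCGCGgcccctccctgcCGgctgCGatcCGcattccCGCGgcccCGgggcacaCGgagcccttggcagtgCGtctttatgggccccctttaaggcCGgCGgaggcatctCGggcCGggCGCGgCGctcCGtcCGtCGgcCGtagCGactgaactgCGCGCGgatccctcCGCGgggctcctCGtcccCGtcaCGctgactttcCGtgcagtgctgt
The HOXD1 window holds 36 CG, more than 87.3% of the 34943 windows in the RefSeq table, the HOXD8 window 34 CG and the HOXD3 window 25 CG. The HOXD4 window holds 4 CG, with a GC content of 47.3% against 74.3% for HOXD1. A window with many CG thus stands both at the called HOXD1 and at the nearly silent HOXD8. Over all HOX genes, 20 of 39 matched the table, with 26 distinct windows, 7 of them of HOXA3, and with HOXC4 and HOXC5 sharing 1. The 4 windows of tested genes had a median of 20 CG and the 22 of genes not tested 22.5, beside 14 for all windows.

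Motifs were looked for as plain letters on both strands of the 26 windows. GGGCGG, the core of the Sp1 site, which itself contains a CG, was in 13 of the 26, beside 44.9% of all windows. CCAAT was in 17, beside 34.6%, and TATAAA in 5, beside 11.6%. TGATNNAT, the core of composite sites bound by PBX and HOX proteins, was in 3, beside 7.42%, and the homeodomain core TAATTA in 2, beside 4.85%. A match to these letters is no evidence that a factor binds there.

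The genes around the clusters were set beside the HOX genes, using the 10 nearest tested genes on each side in the RefSeq gene order. Around HOXB (chromosome 17) the 20 neighbours had a median log2 fold change of −0.01 in MEL-18 T334A and 0.04 in MEL-18 WT against vector, where the 5 HOXB genes had 0.56 and 0.83. Of these neighbours, 5 were higher and 5 lower in MEL-18 T334A, and 3 higher and 1 lower in MEL-18 WT. Around HOXC (chromosome 12) the neighbours' median was −0.04 and −0.02, beside 0.22 and 0.23 for the 7 HOXC genes, and around HOXD (chromosome 2) it was −0.08 and −0.03, beside 0 and 0.15 for the 3 HOXD genes. The genes around HOXA (chromosome 7) had a median of 0.11 in MEL-18 T334A and −0.15 in MEL-18 WT, with 10 higher and 3 lower in MEL-18 T334A and 2 higher and 11 lower in MEL-18 WT. Over all genes tested, 23.4% were higher and 22.5% lower in MEL-18 T334A, and 14.4% each way in MEL-18 WT. The higher HOXB level did not show in the median of the genes that flank the cluster, but single neighbours did rise. The HOXB neighbours ran from −0.2 to 0.66 in MEL-18 T334A and from −0.1 to 0.69 in MEL-18 WT. SP6 was the highest in both (0.66 ± 0.07 and 0.69 ± 0.07).

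**Figure D4:**
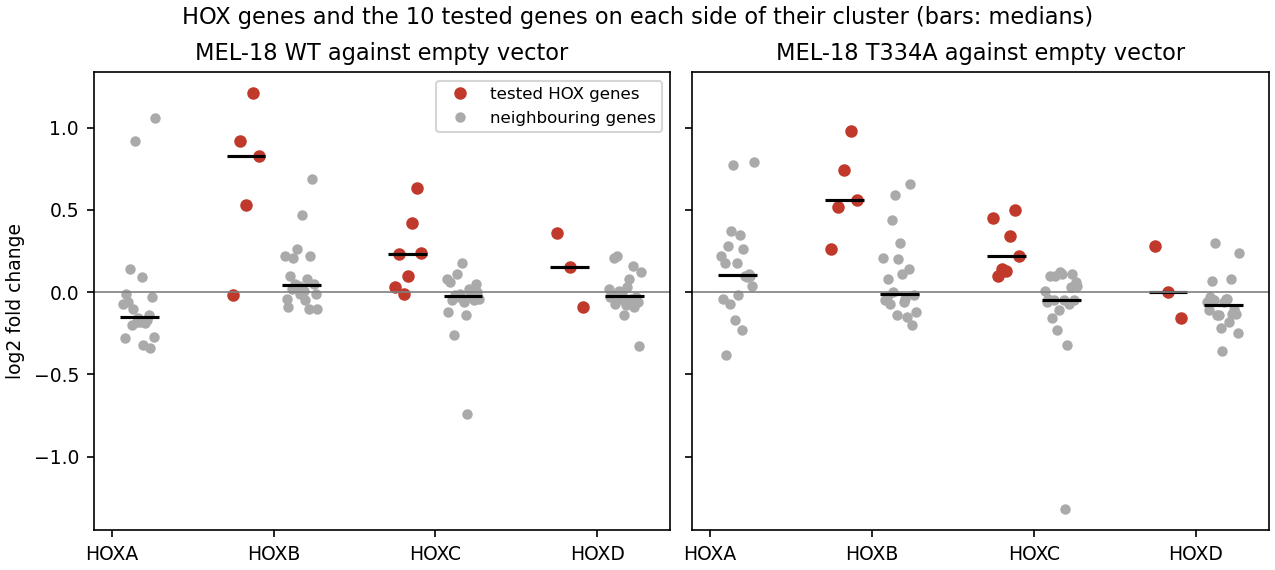
Log2 fold change of the tested HOX genes of each cluster (red) and of the 10 nearest tested genes on each side of it (grey), for MEL-18 WT (left) and MEL-18 T334A (right) against empty vector. Bars are medians. The 5 HOXB genes have medians of 0.83 and 0.56, against 0.04 and −0.01 for their 20 neighbours, and HOXA has no tested HOX gene.

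Other transcripts of the clusters behaved unevenly. Of 24 such entries in the files, 3 could be tested. HAGLR, a noncoding RNA of the HOXD cluster, had 30.8 ± 1.14 CPM in MEL-18 T334A, 31 ± 1.22 CPM in MEL-18 WT cells and 30.3 ± 1.36 CPM in vector cells, and passed in no comparison. HOXC-AS2, which overlaps HOXC9 on the opposite strand, had 0.495 ± 0.015 CPM in MEL-18 T334A and 0.277 ± 0.0382 CPM in vector cells and was called higher (0.83 ± 0.31, adjusted p = 0.029), on 16, 18 and 17 counts in MEL-18 T334A libraries against 8, 9 and 10 in vector libraries. Only 1 vector library lay above the filter for HOXC-AS2, against 3 MEL-18 T334A and 3 MEL-18 WT libraries. HOXC-AS2 thus entered the test through the MEL-18 groups, and its call carries that limit. In MEL-18 WT cells HOXC-AS2 had 0.361 ± 0.0525 CPM (0.37 ± 0.33 over vector, adjusted p = 0.469, edgeR's quasi-likelihood test). HAGLROS, with 96 counts in all, did not pass. HOTAIR, the noncoding RNA of the HOXC cluster described in metastatic breast cancer, had 9 counts in the 9 libraries and HOTAIRM1 none. Among 8 EVX and ParaHox genes, relatives of the clusters, only GSX2 was tested. It had 18, 20 and 16 counts in MEL-18 T334A libraries, 10, 17 and 11 in MEL-18 WT libraries and 7, 9 and 1 in vector libraries, none of the last above the filter.

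TALE homeodomain proteins of the PBX, MEIS and PKNOX families bind DNA together with HOX proteins. Of 8 such genes, 7 were tested: in MEL-18 T334A cells 2 were higher (MEIS3, PBX4) and 2 lower (MEIS2, PKNOX1) than in vector cells, and in MEL-18 WT cells 2 were higher (MEIS3, PBX4) and none lower. Among all genes tested, 45.9% were called in MEL-18 T334A (23.4% higher, 22.5% lower) and 28.8% in MEL-18 WT (14.4% each way). The median log2 fold change of the 7 was 0.04 in MEL-18 T334A and 0.01 in MEL-18 WT. MEIS3 had 6.08, 7.47 and 5.78 CPM in MEL-18 T334A libraries, 4.11, 3.26 and 3.94 CPM in MEL-18 WT libraries and 1.83, 1.9 and 1.98 CPM in vector libraries. The 3 groups did not overlap, with log2 fold changes over the vector of 1.76 ± 0.13 (adjusted p = 1.37e-11) in MEL-18 T334A and 0.98 ± 0.14 (adjusted p = 4.81e-06) in MEL-18 WT, and of 0.78 ± 0.11 between MEL-18 T334A and MEL-18 WT (adjusted p = 2.06e-06).

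PBX4 followed the same order, with 3.53 ± 0.289 CPM in MEL-18 T334A, 2.66 ± 0.276 CPM in MEL-18 WT cells and 1.48 ± 0.0581 CPM in vector cells. MEL-18 T334A exceeded MEL-18 WT by 0.4 ± 0.12 (adjusted p = 0.00837). PKNOX1 had 25.2 ± 0.248 CPM in MEL-18 T334A, 31.6 ± 1.61 CPM in MEL-18 WT cells and 31.1 ± 1.08 CPM in vector cells, and was lower in MEL-18 T334A than in the vector (−0.31 ± 0.05, adjusted p = 4.05e-06). MEIS2 was lower in MEL-18 T334A than in vector cells, with a log2 fold change of −0.18 ± 0.05 (adjusted p = 0.00689). Against MEL-18 WT, MEL-18 T334A cells had 2 of the 7 cofactors higher and 2 lower, the lower ones being PKNOX1 (−0.33 ± 0.05, adjusted p = 1.72e-06) and MEIS2 (−0.19 ± 0.05, adjusted p = 0.00392). Among all genes tested, 40.9% were called in that comparison, 21% as higher and 20% as lower. PBX2, a widely expressed partner of HOX proteins, had 64 ± 0.552, 61 ± 1.35 and 61 ± 0.874 CPM in MEL-18 T334A, MEL-18 WT and vector cells and was not called, nor were PBX3 and MEIS1. PKNOX2 had 24 counts in all and was not tested.

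**Figure D5:**
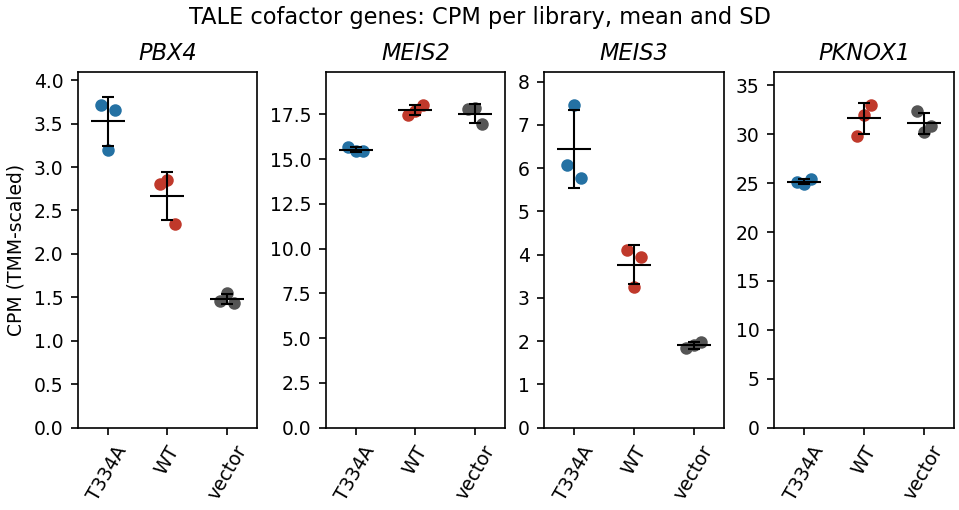
CPM of 4 TALE cofactor genes called in at least 1 comparison, 1 panel per gene with its own axis from 0, in MEL-18 T334A, MEL-18 WT and empty vector libraries from left to right; points are libraries, lines the mean and SD (n = 3). MEIS3 and PBX4 step down from MEL-18 T334A through MEL-18 WT to the vector, while PKNOX1 and MEIS2 are low only in MEL-18 T334A among the 3 groups.

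Genes listed as regulators of HOX clusters moved in both directions and by small amounts. Of 20 such genes, all tested, 4 were higher and 8 lower in MEL-18 T334A than in vector cells, and 3 higher and 6 lower in MEL-18 WT. Over all genes tested, 45.9% were called in MEL-18 T334A (23.4% higher, 22.5% lower) and 28.8% in MEL-18 WT (14.4% each way). KMT2A, the methyltransferase required for HOX expression in blood and leukaemia, had 307 ± 8.96 CPM in MEL-18 T334A, 327 ± 4.15 CPM in MEL-18 WT cells and 320 ± 11.1 CPM in vector cells and passed in neither vector comparison. ASH2L, a subunit of the same complexes, had 56.9 ± 2.53 CPM in MEL-18 T334A, 41.2 ± 0.67 CPM in MEL-18 WT cells and 48.2 ± 0.804 CPM in vector cells: it was higher in MEL-18 T334A (0.24 ± 0.04) and lower in MEL-18 WT (−0.22 ± 0.04) than in the vector. RXRA, a partner of the retinoic acid receptors that act on HOX clusters, moved the same way, with 0.14 ± 0.03 in MEL-18 T334A and −0.21 ± 0.03 in MEL-18 WT. CTCF, which insulates domains within the clusters, was lower in both, with log2 fold changes of −0.16 ± 0.03 in MEL-18 T334A and −0.08 ± 0.03 in MEL-18 WT.

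Genes described elsewhere as targets of HOX proteins gave no single direction. Of 16 listed genes 13 were tested, and 5 were higher and 3 lower in MEL-18 T334A and 3 higher and 5 lower in MEL-18 WT than in vector cells, with medians of 0.04 and −0.12, where 45.9% and 28.8% of all genes tested were called. ITGB3, the integrin subunit linked to HOXD3, had 13.5 ± 1.54 CPM in MEL-18 T334A, 10 ± 0.443 CPM in MEL-18 WT cells and 8.2 ± 1.14 CPM in vector cells. ITGB3 was called higher in both MEL-18 groups (0.73 ± 0.09 and 0.29 ± 0.09). HOXD3 had 0 ± 0.09 and 0.15 ± 0.09 in the same order and was not called. An effect of HOXD3 on ITGB3 was not tested. EGFR had 478 ± 9.97 CPM in MEL-18 T334A, 389 ± 1.92 CPM in MEL-18 WT cells and 423 ± 8.96 CPM in vector cells, and NRG1, a ligand of the ERBB receptors linked to HOXB9 in breast cancer cells, had 59.2 ± 0.157, 38.2 ± 0.84 and 45.4 ± 2.76 CPM in that order. EGFR and NRG1 were each called higher in MEL-18 T334A and lower in MEL-18 WT than in vector cells. HOXB9, in contrast, was higher than the vector in both. VEGFA was lower in MEL-18 T334A than in the vector (−0.17 ± 0.04) and not called in MEL-18 WT (0.05 ± 0.04).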

How the data were processed

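Poly(A) RNA of 9 MDA-MB-231 libraries, 3 per group, was prepared with a stranded kit, per the labels' protocols. The authors deposited 1 table of raw counts per library with 26364 gene symbols. CASAVA 1.8, STAR 2.5.3a, featureCounts of Subread 1.5.3 and hg19 are named in the submitters' processing notes, which as used here state neither annotation nor strand setting.

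Counts were tested with edgeR 4.0.16 in R 4.3.3: filterByExpr (minimum count 10), TMM scaling, 1 mean per group, all 9 libraries in 1 quasi-likelihood fit, and Benjamini-Hochberg adjustment over 14738 genes, called under 0.05. SEs are the log2 fold change divided by the square root of F. CPM uses TMM-scaled library sizes; counts set the precision, and ratios of summed counts carry 95% exact binomial intervals. Alternatives were DESeq2 1.42.0, limma 3.58.1, other scalings and filters, a replicate block and leaving out each library.

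Values in every library were given for HOX genes called in any comparison and for the gene with the highest CPM in HOXB, HOXC and HOXD. HOXA13, the highest of HOXA, was given by its total, and most called genes outside HOX by group means or fold changes. Genes, lists and tests were chosen with earlier results of these data known. Lengths and overlaps came from the basic set of GENCODE 29, windows and gene order from RefSeq GRCh38.p14. The count tables hold no coordinates. A few single genes and sequences are not reported here.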

Additional observations from a re-analysis of the deposited data

How the results depend on the processing

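No log2 fold change of a HOX gene reversed its call: over all alternatives for the 15 genes and 3 comparisons, 739 values kept their side of the threshold, 12 lost it and 8 gained it. HOXB8, HOXB9 and HOXC10 kept their calls against the vector under every alternative in both comparisons, and HOXB7 did in MEL-18 T334A, as did HOXB9 between the MEL-18 forms. The HOX genes called in MEL-18 T334A against MEL-18 WT were 2, and 1 with DESeq2 and without MEL-18 WT replicate 2 or MEL-18 T334A replicate 3; leaving out 1 library gave 1 to 3. Without MEL-18 WT replicate 3 the genes called came to 3. Against the vector the count was 4 to 7 in MEL-18 T334A and 4 or 5 in MEL-18 WT under all alternatives, with 7 from library totals alone. In MEL-18 T334A the HOXD sum was 13.7 CPM with library totals alone, against 13.6 CPM with TMM, a shift above its SD. Scaling moved the median of all genes by at most 0.036 (log2).

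Replicate numbers did not pair the samples: deviations of same-numbered libraries correlated at −0.08 to 0.01. With a replicate block the HOX calls were 5 in MEL-18 T334A against vector, 5 in MEL-18 WT against vector and 2 between the forms, and calls over all genes were 6496, 3963 and 5757. At these depths HOX genes with at most 63 counts in all did not pass the filter and were not compared, and the log2 SE of tested HOX genes was 0.06 to 0.29.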
